A study of Arabidopsis thaliana with 12 samples.

Results

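Gene expression in 3-week-old Arabidopsis thaliana seedlings labelled sdg2 was set against that in wild-type Col seedlings by RNA sequencing. The comparison takes 6 of the 12 libraries of the series, 3 labelled sdg2 and 3 labelled WT (Col), by their titles, and it tests 20125 of the 27655 genes in the deposited table. A gene was tested where at least 3 of these 6 libraries reached 1 TPM (a transcript's share of the library, corrected for gene length, the unit in which the authors deposited the values). The allele of sdg2 is not given in the labels, and neither are the hour of harvest, the batch, or whether the replicates came from separate plants, so p-values measure the spread between these libraries. All plants grew at 22 °C in days of 16 h light followed by 8 h darkness, and total RNA came from the seedlings. The other 6 libraries serve only as a side comparison and as a second control: 3 are labelled h3.3ko;HTR5 K4A (called K4A below) and carry an H3.3 knockout with the H3.3 gene HTR5 changed from lysine to alanine at residue 4, and 3 are labelled h3.3ko;HTR5 (called HTR5) and carry the same knockout with unchanged HTR5.

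SDG2 is a SET-domain enzyme that adds methyl groups to lysine 4 of histone H3 (H3K4), and it is known as the main source of the trimethylated form in Arabidopsis. H3K4 trimethylation lies at the start of genes that are being transcribed, and other enzymes of the ATX family and their WDR5, RBL and ASH2 partners write H3K4 methylation as well. Plants lacking SDG2 are known to be small and to fail in pollen and ovule development.

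The sdg2 libraries held 20727265 to 30368825 reads as recovered from the values, against 13780015 to 14184046 in Col. Chloroplast-encoded genes took 0.0083 to 0.0104% of the reads in sdg2 and 0.0459 to 0.0666% in Col, and the 10 highest genes took 4.66 to 5.004% of TPM in sdg2 and 10.49 to 11.01% in Col. K4A libraries lay near sdg2 in these measures and HTR5 replicates 1 and 3 near Col, while HTR5 replicate 2 stood apart with 0.1159% chloroplast reads and 7.976% of TPM in its 10 highest genes. Depth, or a batch with this split, and the genotype cannot be told apart. Seed storage genes were near 0 in all libraries, and the root stem-cell genes PLT1, PLT2 and WOX5 were at or near 0. The whole list of 10 root markers was not absent, however, with 3 members tested. It summed to 78.16 to 86.87 TPM in sdg2 and 86.54 to 92.44 TPM in Col. LHCB1.3, an antenna gene of green tissue, had the highest mean of all listed genes in both groups. In whole seedlings, fewer cells of a type and less RNA per cell cannot be told apart.

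The SDG2 gene itself was examined first. SDG2 (AT4G15180, chromosome 4, 8651406 to 8662587 of TAIR10.1, plus strand) stood at 170.3, 139 and 174 TPM in the sdg2 libraries, against 24.2, 22.98 and 18.4 TPM in Col, and at means of 27.5 TPM in K4A and 25.3 TPM in HTR5. All 3 sdg2 libraries lay above every Col library, with a log2 fold change of 2.83 ± 0.102 (± gives the standard error throughout) and a limma adjusted p of 5.35e-11. The transcript was thus not lost, and since the table gives 1 value per gene, a partial or altered transcript cannot be seen, so the libraries are called by their label throughout. Among the 10 other tested genes that start within 20 kb, 8 were called higher, against 55.9% of all tested genes. Of the rest, 1 was lower (AT4G15140, -0.6) and 1 in neither direction (AT4G15165, 0.09, limma adjusted p = 0.561). The largest log2 fold change among the 10 was 1.76 for the glycine-rich protein gene AT4G15150, below that of SDG2. Under median-of-ratios scaling, described below, CYP97B3 (0.01) and CCT2 (0.14) were no longer called. With the length trend removed, also described below, CYP97B3 (-0.05), FH3 (0.32) and ABCG41 (0.29) were not called. AT4G15150 then stood at 2.4 and SDG2 at 2.2.

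Defence genes, evening clock genes and genes of the unfolded protein response were higher in sdg2, while genes of photosynthesis, morning clock genes, aliphatic glucosinolate genes and auxin-responsive genes were lower. A gene was called at a limma adjusted p under 0.05 (Benjamini-Hochberg over all 20125 genes), and fold changes are differences of log2(TPM + 1), which understate the change of low genes. By this rule 15717 genes or 78.1% were called, 11248 of them higher in sdg2 (55.9% of those tested) and 4469 lower (22.2%). With a change of at least 2-fold as well, 3041 genes were higher (15.1%) and 1417 lower (7.04%). Over the tested genes as a whole the median was 0.33 on the log2 scale, and the counts of each group of genes below are read against these shares. With median-of-ratios scaling that median became 0.01 and the called genes split into 7358 higher and 7229 lower, with 1955 higher and 2154 lower by at least 2-fold, so whether a small difference counts as a rise, and which direction is the more frequent, depends on the scaling.

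**Figure D1:**
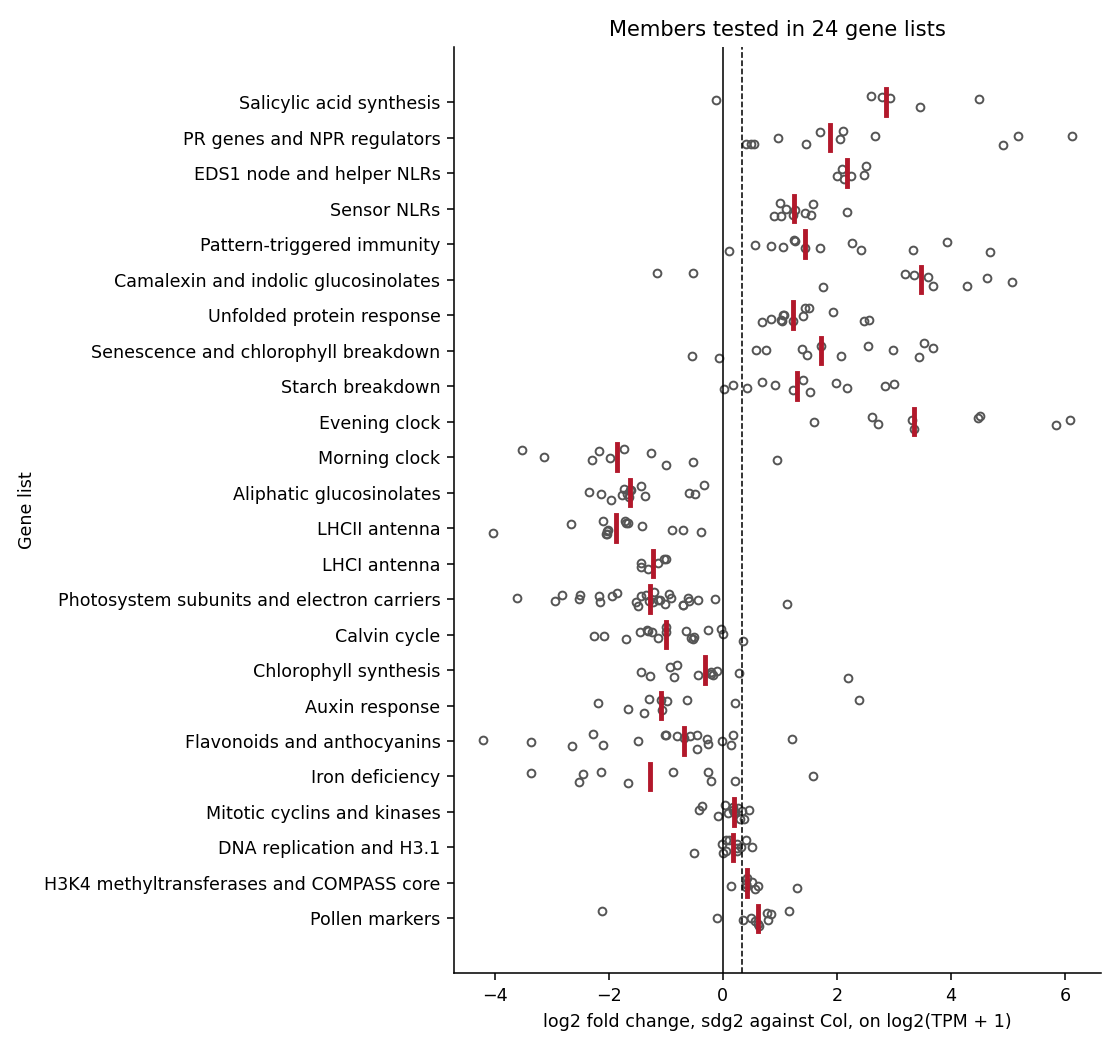
Log2 fold changes of the tested members of 24 gene lists, sdg2 against Col, on log2(TPM + 1). Each ring is a gene, each red bar the median of a list, the solid line 0 and the dashed line the median of all tested genes, 0.33. The medians run between 3.48 for camalexin and indolic glucosinolates and -1.87 for the LHCII antenna.

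The change also followed the length of the transcript and the level of the gene. Among 277 genes with a spliced transcript under 500 bases the median log2 fold change was -0.55 and 42.6% were called at least 2-fold lower, against a median of 0.54 and 0.899% among 2225 genes of 3000 bases or more. K4A against HTR5 showed medians of -0.29 and 0.23 in the same length classes, and HTR5 against Col showed -0.03 and 0.10. Of 87 genes at 1000 TPM or more in the HTR5 libraries, which took no part in the sdg2 comparison, 60.9% were called at least 2-fold lower in sdg2, with a median of -1.23. An added fit with the length trend removed, chosen after seeing the data, called 7496 genes higher and 6894 lower. It also brings the median of all genes to 0.02, as median-of-ratios scaling does without touching length. Counts from these settings are given below for some lists only, and the counts of other lists can change too. Of 8 cytokinin response regulators, for example, 5 were called higher as deposited, 0 with median-of-ratios scaling and 1 with the length trend removed.

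**Figure D2:**
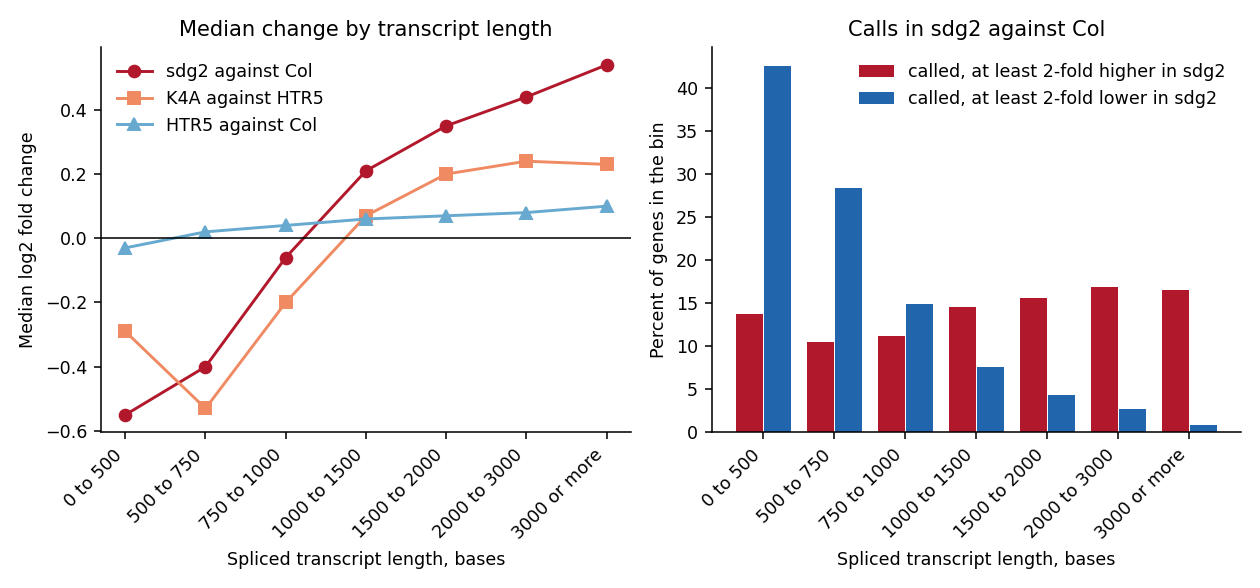
Change by spliced transcript length in bases. The left panel gives the median log2 fold change per length class for sdg2 against Col, K4A against HTR5 and HTR5 against Col, and the right panel the percent of genes called and at least 2-fold higher or lower in sdg2. The sdg2 median runs between -0.55 in the shortest class and 0.54 in the longest.

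The 10 largest rises among called genes with non-overlapping groups and a mean of at least 5 TPM in the higher group included 6 with known roles in defence. DLO1 (AT4G10500), which hydroxylates salicylic acid, stood at 749, 844 and 806 TPM in sdg2, against 6.82, 6.04 and 5.37 TPM in Col, a log2 fold change of 6.83 ± 0.0726 with a limma adjusted p of 3.71e-15. FMO1 (AT1G19250), which makes the immune signal N-hydroxypipecolic acid, stood at 144, 140.2 and 145 TPM in sdg2, against 0.979, 0.289 and 0.582 TPM in Col (log2 fold change 6.5 ± 0.13). PR1 (AT2G14610), the classic marker gene of salicylic acid signalling, stood at 2760, 2818 and 2606 TPM in sdg2, against 47.2, 30.9 and 38.05 TPM in Col (log2 fold change 6.12 ± 0.107). Every sdg2 library was above every Col library for each of the 10 genes, which the rule of choice required. The others were the wall-associated kinase gene WAK3 (5.77), the cysteine-rich receptor-like kinase genes CRK7 (5.7) and CRK37 (5.69), the chitinase gene CHI (AT2G43570, 5.66), the DNAJ-domain gene AT5G23240 (6.13), and the clock genes FKF1 (6.09) and PRR5 (5.84), with the log2 fold change in brackets.

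**Figure D3:**
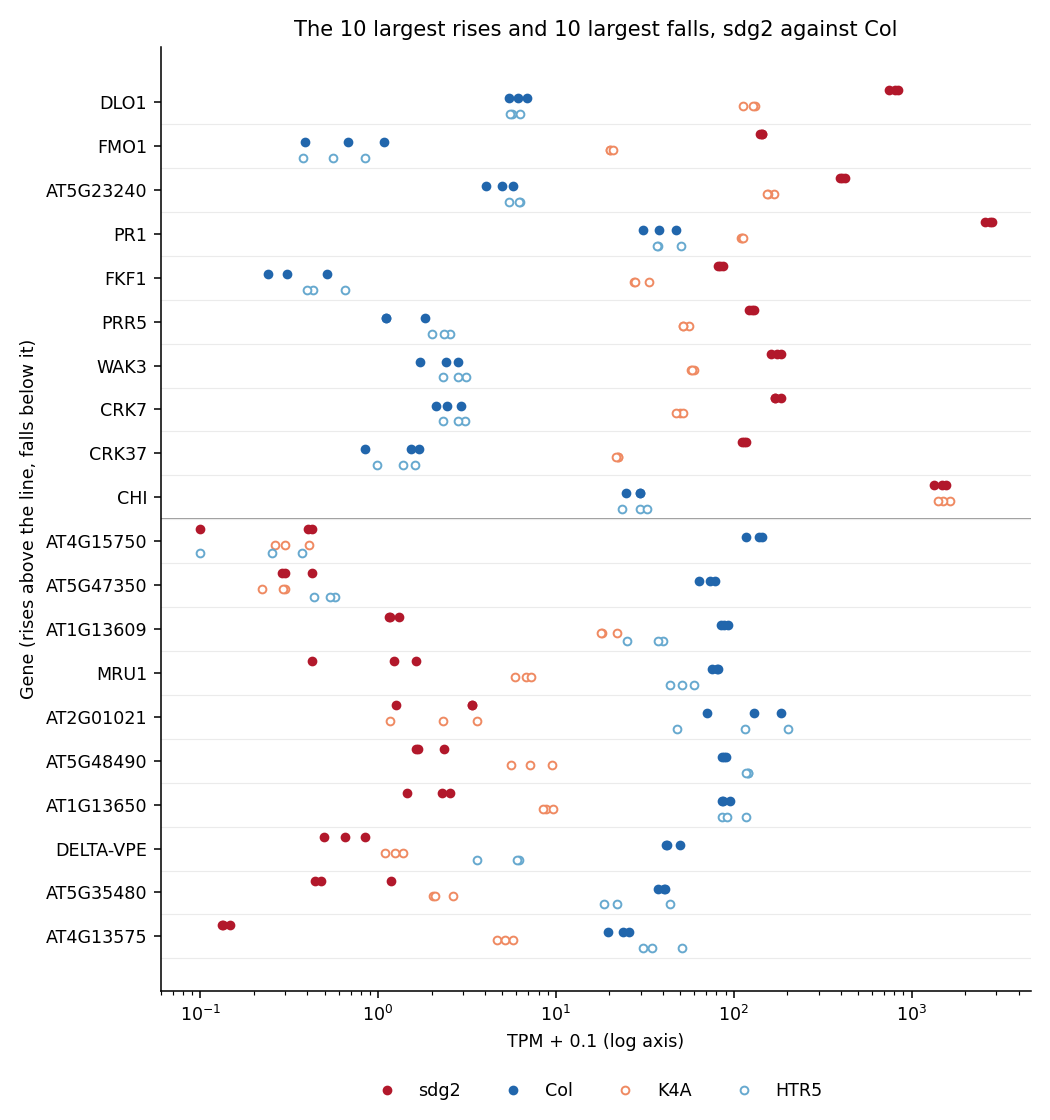
TPM in each library for the genes with the 10 largest rises (top) and the 10 largest falls in sdg2 against Col, on a log axis after adding 0.1. Filled points are sdg2 and Col, open points K4A and HTR5, 3 libraries each. DLO1 lies at 749 to 844 TPM in sdg2 and 5.37 to 6.82 TPM in Col.

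The 10 largest falls were mostly in genes with little annotation. AT4G15750, a gene of the pectin methylesterase inhibitor superfamily, stood at 0.302, 0.325 and 0 TPM in sdg2, against 138, 116 and 144 TPM in Col, but it was also low in K4A (0.224 TPM) and HTR5 (0.142 TPM). The hydrolase gene AT5G47350 showed the same arrangement, with 0.325, 0.199 and 0.187 TPM in sdg2 and 73.2, 63.5 and 78.1 TPM in Col, and means of 0.1702 TPM in K4A and 0.414 TPM in HTR5. Both genes were high in Col alone, so these falls rest on the Col libraries. DELTA-VPE (AT3G20210), a vacuolar protease gene known from the seed coat, stood at 0.554, 0.397 and 0.745 TPM in sdg2, against 41.96, 41.6 and 50.1 TPM in Col, and it averaged 5.18 TPM in HTR5. The lipid-transfer-like gene AT5G48490 fell in sdg2 to 1.58, 2.26 and 1.54 TPM, against 87.7, 90.97 and 86.3 TPM in Col (log2 fold change -5.01 ± 0.104), and HTR5 averaged 119 TPM. AT4G13575 held at most 2 reads in any sdg2 library and 25.6, 23.8 and 19.5 TPM in Col, and was at least 227-fold lower against a floor of 3 reads per library.

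The remaining falls lay partly side by side in the genome. MRU1 (AT5G35490, chromosome 5, 13689817 to 13690548), named for its response to a methionine-accumulating mutation, stood at 1.13, 0.325 and 1.52 TPM in sdg2, against 81.8, 75.2 and 80.2 TPM in Col. Its neighbour AT5G35480 (13687847 to 13689596) stood at 0.379, 0.339 and 1.08 TPM in sdg2, against 40.6, 37.3 and 40.8 TPM in Col. The defensin-like gene AT1G13609 (chromosome 1, 4662698 to 4663253, -5.42) and AT1G13650 (4680290 to 4682382, -4.94) also lie near each other. AT2G01021, a gene of unknown function at the end of chromosome 2 (6571 to 6672), stood at 3.25, 1.17 and 3.28 TPM in sdg2, with at most 4 reads, against 184, 70.9 and 130.3 TPM in Col. It also had at most 4 reads in K4A, against 29 to 132 in HTR5. That is the split of the libraries by depth given above, whose part in this fall was not tested. The groups did not overlap for any of these 5 genes, which the rule of choice required.

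Salicylic acid genes rose almost throughout. The hormone is made from chorismate by way of isochorismate and drives resistance to biotrophic pathogens. Of 6 synthesis genes 5 were called higher and 0 lower, with a median log2 fold change of 2.86. ICS1, the isochorismate synthase, stood at 83.03, 76.5 and 82.4 TPM in sdg2, against 11.4, 11.3 and 9.74 TPM in Col (log2 fold change 2.79 ± 0.074, limma adjusted p = 3.27e-12). Its activators SARD1 and CBP60G rose by 4.49 and 3.46 on the log2 scale, the transporter EDS5 by 2.93 and the isochorismate-glutamate ligase PBS3 by 2.6. EPS1, which acts last, stood at 24.5, 22.5 and 24.1 TPM in sdg2 and 24.2, 25.2 and 28.1 TPM in Col, and was not called (-0.12, limma adjusted p = 0.164). Of 6 genes of salicylic acid turnover 5 were called higher and 1 lower, and DMR6, a hydroxylase like DLO1, rose by 2.36. Both listed genes of N-hydroxypipecolic acid synthesis rose, with ALD1 at 22.2, 20.8 and 20.98 TPM in sdg2, against 0.814, 0.572 and 0.698 TPM in Col.

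Downstream of the hormone, all 12 PR genes and NPR or TGA regulators were called higher, with a median of 1.88. PR2, a glucanase, stood at 2907, 2886 and 2685 TPM in sdg2, against 78.99, 75.5 and 76.9 TPM in Col (log2 fold change 5.18 ± 0.0422). PR5, a thaumatin-like protein, stood at 1374, 1403 and 1372 TPM in sdg2, against 43.7, 46.2 and 44.4 TPM in Col (log2 fold change 4.92 ± 0.0396). The salicylic acid receptor gene NPR1 rose by 1.71 and its inhibitor gene NIMIN2 by 2.67. With median-of-ratios scaling 10 of the 12 were called higher, and with the length trend removed 9, where TGA1, TGA2 and TGA6 were not called. All 6 genes of the EDS1 node, through which many intracellular receptors signal, rose as well (median 2.18), including EDS1 (2.52), PAD4 (2.09) and the helper receptor ADR1-L1 (2.48).

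The receptors that start these responses were higher too. Of 13 genes of pattern-triggered immunity, the response to conserved microbial molecules, 12 were called higher and 0 lower (median 1.44). FRK1, a marker gene of this response, stood at 42.1, 40.2 and 43.3 TPM in sdg2, against 0.643, 0.807 and 0.568 TPM in Col (log2 fold change 4.68 ± 0.107). SOBIR1, a co-receptor kinase, stood at 777, 774 and 823 TPM in sdg2, against 50.7, 53.2 and 48.2 TPM in Col (log2 fold change 3.94 ± 0.0471). The groups lay far apart for both genes. The chitin receptor LYK5 rose by 3.33, the kinase MPK3 by 2.42 and the flagellin receptor FLS2 by 1.7. PEPR1, a receptor of plant danger peptides, was not called (0.1, limma adjusted p = 0.218).

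All 10 listed sensor NLR genes, which encode intracellular receptors of pathogen effectors, were called higher (median 1.25), with RPS2 (2.17) at the top of the list and SNC1 at 240, 213 and 236 TPM in sdg2, against 103, 99.7 and 89.2 TPM in Col. All 10 were still called higher with median-of-ratios scaling and with the length trend removed, but 4 and 2 rather than 8 passed 2-fold. Of 70 tested TIR-domain NLR genes, taken as a whole family, 68 were called higher and 1 lower, 44 of them at least 2-fold higher, or 24 with median-of-ratios scaling and 18 with the length trend removed. Of 46 receptor-like protein genes 41 were called higher and 2 lower (median 1.27). Of 39 cysteine-rich receptor-like kinase genes 35 were called higher and 2 lower, 32 of them at least 2-fold higher (median 2.17). NLR and kinase genes stand in clusters of close copies, and how reads shared by copies were counted is not given in the sources used here.

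Among transcription factors, 55 of 59 tested WRKY genes were called higher and 2 lower, 42 of them at least 2-fold higher (median 1.57). The following family members were chosen after their values were seen. WRKY75 stood at 127, 97.4 and 102 TPM in sdg2, against 2.57, 2.36 and 2.27 TPM in Col (log2 fold change 5.01 ± 0.1). WRKY53, a regulator of leaf senescence, stood at 141, 139.6 and 149 TPM in sdg2, against 4.27, 3.997 and 4.903 TPM in Col (log2 fold change 4.74 ± 0.0758). CRK6 of the receptor-like kinases rose by 5.14 and RLP34 of the receptor-like proteins by 4.27. Of 72 NAC genes 52 were called higher and 12 lower (median 0.78), and of 87 MYB genes 31 higher and 27 lower (median 0.08, or -0.17 under quantile normalization).

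WRKY factors bind the W-box, and its core TTGAC was searched on both strands from 250 bases before to 50 bases after each gene start. It stood in 61.4% of 3031 such windows of genes called at least 2-fold higher, 45.1% of 1361 windows of genes called at least 2-fold lower and 50.5% of all 27444 windows. Among the lists it stood in 12 of 13 genes of pattern-triggered immunity and in 32 of 44 cysteine-rich receptor-like kinase genes. Other rising lists held it less often, with 5 of 10 sensor NLR genes and 3 of 6 genes of salicylic acid turnover. Lists that were mostly lower held it often too, with 8 of 9 genes of PIF factors and shade response and 7 of 10 auxin-responsive genes. The 250 bases before the start of FRK1 (chr2:8329945-8330194, minus strand), described above, are shown as an example chosen after the values were seen (TAIR10.1 sequence from RefSeq, gene strand, W-box cores in capitals).
FRK1: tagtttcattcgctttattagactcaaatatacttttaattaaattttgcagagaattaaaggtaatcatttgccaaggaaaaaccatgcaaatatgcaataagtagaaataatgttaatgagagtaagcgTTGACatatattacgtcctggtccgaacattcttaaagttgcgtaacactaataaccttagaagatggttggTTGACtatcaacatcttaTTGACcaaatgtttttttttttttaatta
FRK1 holds 3 cores here, and a match is only a match of letters.

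Jasmonate genes, which act mainly against insects and necrotrophs, moved in both directions. Of 9 synthesis genes 6 were called higher and 2 lower (median 1.12), with LOX4 (2.97) among the rises and AOS (-0.63) among the falls. Of 15 response genes 11 were called higher and 4 lower (median 1.09). The repressor gene JAZ1 stood at 164, 191 and 185 TPM in sdg2, against 24.5, 22.02 and 19.4 TPM in Col (log2 fold change 2.98 ± 0.0809), and the ethylene-response factor ERF1 rose by 2.78. The defensin gene PDF1.2 stood at 76.5, 81.1 and 85.3 TPM in sdg2, against 337, 324 and 343 TPM in Col (log2 fold change -2.04 ± 0.0482). PDF1.2C, a close copy, fell by 2.95. Both falls turned into rises with the HTR5 libraries as the control, since PDF1.2 averaged 31.04 TPM and PDF1.2C 8.196 TPM there. Among 29 plant defensin and defensin-like genes 4 were called higher and 22 lower, but 23 of them have transcripts under 750 bases, and 19 or, with the length trend removed, 10 were at least 2-fold lower. With HTR5 in place of Col 5 were called lower and 4 higher (median -0.21), so most of these calls rest on the Col libraries. The symbols by which that family was taken also brought in PDF1, PDF2 and PP2AA2, which are not defensins.

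The glucosinolate pathways parted. These sulphur compounds deter herbivores and come from tryptophan (the indolic ones, which share intermediates with the antimicrobial camalexin) or from methionine (the aliphatic ones). Of 10 genes of camalexin and indolic glucosinolates 8 were called higher and 2 lower (median 3.48). CYP71A12, an enzyme of the camalexin branch, stood at 169, 182 and 177 TPM in sdg2, against 5.898, 3.33 and 3.86 TPM in Col (log2 fold change 5.07 ± 0.132). PAD3, which completes camalexin, stood at 217, 207 and 202 TPM in sdg2, against 7.604, 7.63 and 7.002 TPM in Col (log2 fold change 4.64 ± 0.0597). The entry enzyme CYP79B2 rose by 3.19, while its copy CYP79B3 fell by 0.52 and the regulator MYB34 by 1.15. All 14 aliphatic genes were called lower, 11 at least 2-fold (median -1.63). The regulator MYB29 stood at 17.9, 17.2 and 19.2 TPM in sdg2, against 98.05, 98.1 and 90.6 TPM in Col (log2 fold change -2.34 ± 0.062). Its partner MYB28 fell by 1.61, the aminotransferase BCAT4 by 2.14 and the entry enzyme CYP79F1 by 1.76, and the groups did not overlap for these 4 genes.

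Genes of the unfolded protein response, which fold and check proteins entering the secretory pathway, were all called higher, 13 of 13, with a median of 1.23. The calreticulin CRT3, known for folding immune receptors, stood at 308, 328 and 311 TPM in sdg2, against 54.7, 51.5 and 51.1 TPM in Col (log2 fold change 2.57 ± 0.0464). The chaperone BIP3, a marker of this response, stood at 18.9, 20.7 and 17.2 TPM in sdg2, against 2.85, 2.39 and 2.46 TPM in Col (log2 fold change 2.48 ± 0.114), and its abundant relative BIP1 rose by 1.23. All 13 were still called higher with median-of-ratios scaling and with the length trend removed, 6 and 5 rather than 11 of them at least 2-fold.

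Photosynthesis genes encoded in the nucleus fell together. All 14 genes of the LHCII antenna, the light-harvesting proteins of photosystem II, were called lower (median -1.87), and their summed level was 33510 to 35231 TPM in sdg2, against 89426 to 94589 TPM in Col. LHCB2.3 stood at 77.5, 78.97 and 73.96 TPM in sdg2, against 1263, 1281 and 1283 TPM in Col (log2 fold change -4.04 ± 0.0394, limma adjusted p = 2.16e-15). LHCB2.2 fell by 2.66 and LHCB5 by 1.72. LHCB1.3, the highest of the list, stood at 12616, 13639 and 13393 TPM in sdg2, against 20685, 21205 and 22210 TPM in Col, and under quantile normalization, which fixes the highest ranks, its difference was 0.00. LHCB4.1 fell by 0.38 and was 0.81 higher under that normalization, where 11 of the 14 were called lower and 1 higher (median -0.86). LHCB genes of 1 group are close copies, so reads may have been divided among them.

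The rest of the photosynthetic apparatus followed. All 6 LHCI antenna genes of photosystem I were called lower (median -1.23, or -0.29 under quantile normalization), with LHCA4 falling by 1.44. Of 28 photosystem subunits and electron carriers 27 were called lower and 1 higher (median -1.27). PSAK, a subunit of photosystem I, stood at 230.1, 203 and 244 TPM in sdg2, against 2716, 2678 and 2863 TPM in Col (log2 fold change -3.61 ± 0.0597). PSBX, a small subunit of photosystem II, stood at 622, 559 and 536 TPM in sdg2, against 4300, 4390 and 4567 TPM in Col (log2 fold change -2.95 ± 0.053). The exception was FNR2, a ferredoxin reductase, with 762, 777 and 744 TPM in sdg2, against 350.5, 344 and 344 TPM in Col (log2 fold change 1.13 ± 0.0367). Small subunits have short transcripts, but with the length trend removed the list still had 27 lower and 1 higher, and PSAK stood at -3.38 on the log2 scale. Under quantile normalization 21 were called lower and 3 higher (median -0.87), 12 rather than 19 of them at least 2-fold lower. Of 18 Calvin cycle genes 15 were called lower and 1 higher (median -1.0, or -0.40 under quantile normalization), with the Rubisco activase RCA falling by 2.09 and the small subunit RBCS1A by 1.45, while RBCS1A differed by 0.00 under quantile normalization.

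**Figure D4:**
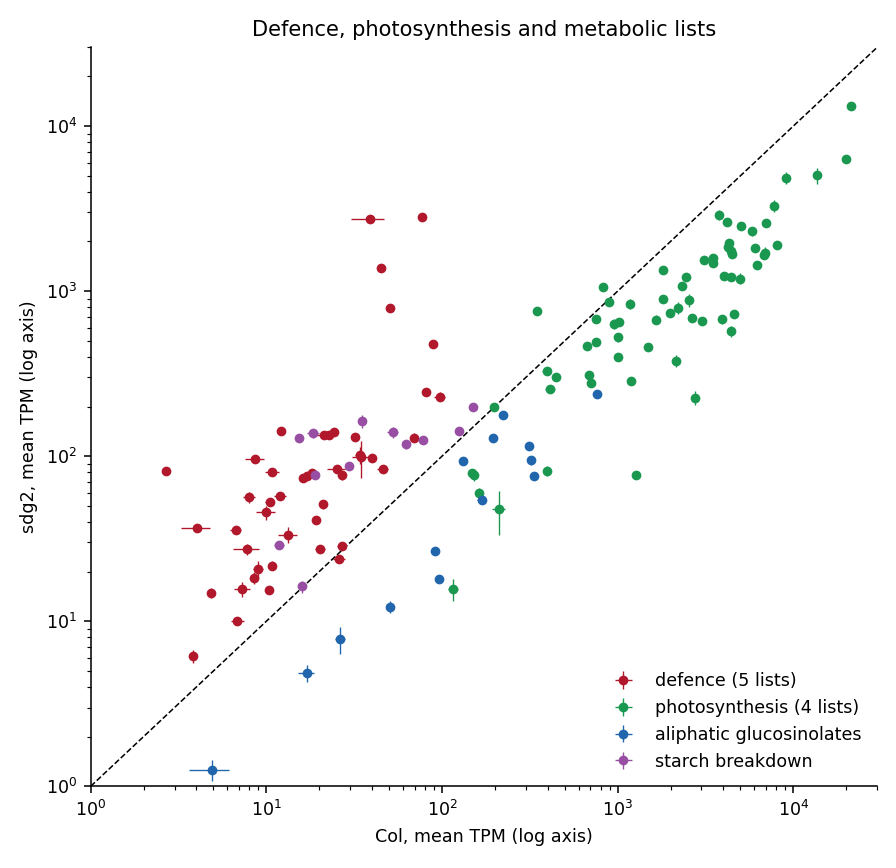
Mean TPM in sdg2 (vertical axis) against mean TPM in Col (horizontal axis) for the tested members of 5 defence lists, 4 photosynthesis lists, the aliphatic glucosinolate list and the starch breakdown list, on log axes with SD bars (n = 3 each) and a dashed line of equality. Most photosynthesis genes lie below the line and FNR2 above it, at 762 TPM in replicate 1 of sdg2 and 351 TPM in replicate 1 of Col.

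The I-box GATAAG, a motif known from light-regulated genes, was searched in the same windows on both strands. It stood in 19.6% of windows of genes called at least 2-fold lower, 15.1% of those at least 2-fold higher and 14.6% of all windows, and in 15 of the 28 photosystem genes. The other photosynthesis lists held it in 4 of 14 LHCII, 2 of 6 LHCI and 5 of 18 Calvin cycle genes. Lists that were mostly higher held it as well, with 5 of 10 sensor NLR genes and 8 of 16 jasmonate and ethylene response genes. The 250 bases before PSAK (chr1:10721933-10722182, plus strand) and LHCB2.1 (chr2:1824481-1824730, minus strand), both with lower transcripts in sdg2, are shown as examples chosen after the values were seen, with the I-box or its reverse complement in capitals.
PSAK: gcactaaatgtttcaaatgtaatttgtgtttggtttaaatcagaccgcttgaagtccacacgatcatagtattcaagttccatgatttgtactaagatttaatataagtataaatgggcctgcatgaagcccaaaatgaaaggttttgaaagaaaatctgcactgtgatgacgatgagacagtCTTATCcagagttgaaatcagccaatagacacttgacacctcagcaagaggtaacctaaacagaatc
LHCB2.1: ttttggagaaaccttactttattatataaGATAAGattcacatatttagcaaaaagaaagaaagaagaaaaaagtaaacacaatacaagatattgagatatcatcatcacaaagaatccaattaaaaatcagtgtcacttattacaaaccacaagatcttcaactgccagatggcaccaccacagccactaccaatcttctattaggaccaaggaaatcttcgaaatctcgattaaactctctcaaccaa
LHCB2.1 stood at 1112, 1291 and 1177 TPM in sdg2, against 4924, 4949 and 4958 TPM in Col.

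Chlorophyll genes moved less. Of 12 tested synthesis genes 9 were called lower and 2 higher (median -0.32). CAO, which makes chlorophyll b, fell by 1.28. PORB, a light-dependent reductase, stood at 776, 766 and 753 TPM in sdg2, against 164, 168 and 170.4 TPM in Col (log2 fold change 2.19 ± 0.0374). Of 7 chloroplast regulators 5 were called lower and 0 higher (median -0.81), among them the photosynthesis activator GLK2 (-1.36). Of 68 tested chloroplast-encoded genes 64 were called lower and 0 higher (median -1.61), but these genes move with the share of chloroplast reads given above, whose part in the result was not tested. Of 13 genes of senescence and chlorophyll breakdown 11 were called higher and 1 lower (median 1.73). SAG13 stood at 714, 681 and 730 TPM in sdg2, against 56.9, 53.5 and 52.9 TPM in Col (log2 fold change 3.68 ± 0.0453). The senescence regulator ORE1 rose by 2.55 and the chlorophyll b reductase NYC1 by 1.73, while the sugar transporter SAG29 fell by 0.54 and was 1.06 higher with HTR5 as the control.

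The circadian clock genes parted by their time of day. In the clock, morning-expressed CCA1 and LHY repress evening genes such as TOC1, and the evening genes repress the morning genes in turn. Of 10 morning genes 9 were called lower and 1 higher (median -1.86). CCA1 stood at 14.1, 14.1 and 14.3 TPM in sdg2, against 141, 135 and 121 TPM in Col (log2 fold change -3.13 ± 0.0639, limma adjusted p = 3.34e-13). LHY stood at 4.93, 3.88 and 5.12 TPM in sdg2, against 63.6, 65.7 and 61.4 TPM in Col (log2 fold change -3.52 ± 0.0947). The activator genes LNK2 and RVE8 fell by 2.17 and 1.98, and PRR7, which peaks later in the day than the others, rose by 0.95.

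All 9 evening genes were called higher and at least 2-fold (median 3.36). FKF1, a blue-light receptor of the flowering pathway, stood at 81.5, 87.3 and 83.7 TPM in sdg2, against 0.414, 0.208 and 0.139 TPM in Col (log2 fold change 6.09 ± 0.108). PRR5, a repressor of the morning genes, stood at 122, 127 and 129 TPM in sdg2, against 1.74, 1.01 and 1.01 TPM in Col (log2 fold change 5.84 ± 0.115). TOC1 stood at 112, 111 and 115 TPM in sdg2, against 10.7, 10.9 and 9.57 TPM in Col (log2 fold change 3.32 ± 0.0646). The groups lay apart for each of these genes. ELF4, ELF3 and LUX, which form the evening complex, rose by 4.47, 2.73 and 3.36, PRR3 by 4.51, GI by 2.62 and BOA, a relative of LUX, by 1.6. In K4A against HTR5 the evening genes had a median of 2.70 with 9 of 9 called higher. The morning genes had a median of -0.39 there, with 8 of 10 called lower and 1 higher. Clock transcripts swing through the day, and the part of the hour of harvest in these values was not tested.

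**Figure D5:**
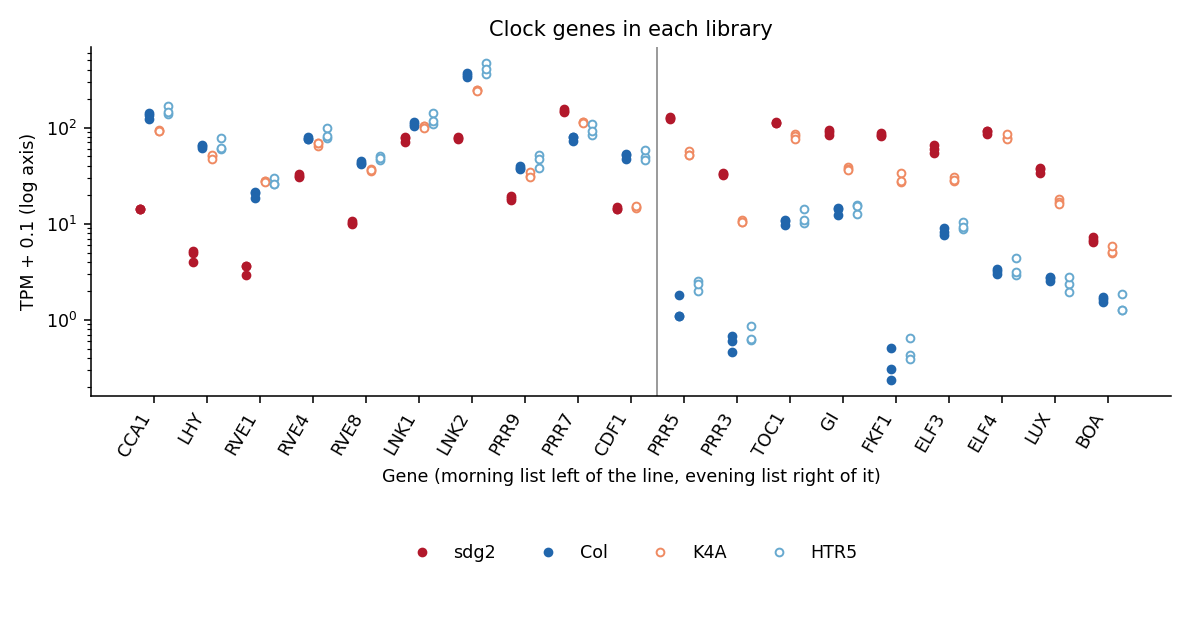
TPM of 10 morning and 9 evening clock genes in each library, on a log axis after adding 0.1. Filled points are sdg2 and Col, open points K4A and HTR5, 3 libraries each. CCA1 lies at 14.1 to 14.3 TPM in sdg2 and 121 to 141 TPM in Col, while all 9 evening genes lie higher in sdg2 than in Col.

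CCA1 and LHY bind the evening element AAAATATCT, which was searched in the same windows on both strands. It stood in 6.53% of windows of genes called at least 2-fold higher, 1.91% of those at least 2-fold lower and 2.82% of all windows. Among the lists it stood in 5 of the 9 evening clock genes and in 4 of 12 starch breakdown genes. Other rising lists lacked it, with 0 of 13 genes of pattern-triggered immunity. Some lists that were mostly lower held it, with 2 of 13 chlorophyll synthesis, 1 of 6 LHCI and 1 of 10 morning clock genes. Others did not, with 0 of 14 LHCII and 0 of 28 photosystem genes. The 250 bases before 5 genes of the clock and starch lists, all higher in sdg2, are shown as examples chosen after the values were seen, with the element or its reverse complement in capitals. They are PRR5 (chr5:8358547-8358796, minus strand), TOC1 (chr5:24674713-24674962, plus strand), FKF1 (chr1:25508389-25508638, plus strand), LUX (chr3:17182792-17183041, plus strand) and ISA3 (chr4:5783659-5783908, plus strand).
PRR5: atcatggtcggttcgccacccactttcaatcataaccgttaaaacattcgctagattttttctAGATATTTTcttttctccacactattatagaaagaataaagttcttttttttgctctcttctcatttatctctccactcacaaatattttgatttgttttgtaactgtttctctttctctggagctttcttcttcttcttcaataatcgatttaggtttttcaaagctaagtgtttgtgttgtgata
TOC1: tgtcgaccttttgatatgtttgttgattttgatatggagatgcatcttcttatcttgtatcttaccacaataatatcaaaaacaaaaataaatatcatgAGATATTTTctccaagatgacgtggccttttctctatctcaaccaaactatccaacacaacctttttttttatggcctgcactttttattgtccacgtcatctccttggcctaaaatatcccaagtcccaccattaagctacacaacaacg
FKF1: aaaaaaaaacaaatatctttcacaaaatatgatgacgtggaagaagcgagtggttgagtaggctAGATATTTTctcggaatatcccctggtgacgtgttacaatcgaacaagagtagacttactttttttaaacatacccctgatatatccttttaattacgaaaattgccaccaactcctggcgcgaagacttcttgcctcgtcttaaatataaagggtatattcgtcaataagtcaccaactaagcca
LUX: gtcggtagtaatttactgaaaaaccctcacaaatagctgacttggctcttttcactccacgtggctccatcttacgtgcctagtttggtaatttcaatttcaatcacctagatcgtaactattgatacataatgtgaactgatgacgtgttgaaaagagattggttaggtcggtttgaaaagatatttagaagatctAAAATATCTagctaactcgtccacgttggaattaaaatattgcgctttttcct
ISA3: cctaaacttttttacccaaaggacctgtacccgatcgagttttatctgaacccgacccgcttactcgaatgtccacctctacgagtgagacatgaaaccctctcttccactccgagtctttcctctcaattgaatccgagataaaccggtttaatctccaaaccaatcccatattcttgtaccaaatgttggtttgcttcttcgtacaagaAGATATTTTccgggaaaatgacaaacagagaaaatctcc
Each of them holds the element in 1 place.

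Starch breakdown genes, many of which are clock-controlled, were called higher in 11 of 12 cases and lower in 0 (median 1.31), or in 9 and 2 with median-of-ratios scaling. The debranching enzyme ISA3 stood at 130, 124 and 133 TPM in sdg2, against 15.7, 15.6 and 14.6 TPM in Col (log2 fold change 3.0 ± 0.057). The glucan phosphorylating enzymes PWD and SEX1 rose by 2.84 and 2.18. Of 9 starch synthesis genes 6 were called higher and 1 lower (median 0.61), or 5 and 4 with median-of-ratios scaling (median 0.27). The branching enzyme SBE2.1 rose by 2.02 and the granule-bound synthase GBSS1 fell by 1.33. Of 13 cold-response genes 10 were called higher and 3 lower (median 0.74). COR27, a cold and clock regulator, stood at 36.3, 33.3 and 34.4 TPM in sdg2, against 0.759, 0.277 and 0.488 TPM in Col (log2 fold change 4.58 ± 0.132). The cold activator CBF1 rose by 2.77 and the chloroplast protectant COR15B by 2.76, while KIN1 fell by 1.58.

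Flowering genes moved little as a list, with 7 of 15 called higher, 4 lower and a median of 0.21, or 3 higher, 6 lower and -0.11 under quantile normalization. FT, which encodes the mobile flowering signal, stood at 1.86, 1.63 and 2.04 TPM in sdg2, against 8.41, 6.94 and 8.01 TPM in Col (log2 fold change -1.63 ± 0.131). Its close relative TSF stood at 3.19, 2.23 and 2.89 TPM in sdg2, against 0.4197, 0.491 and 0.918 TPM in Col (log2 fold change 1.23 ± 0.177). The groups did not overlap for either gene, and the 2 differences had opposite signs. FUL, a regulator of flowering, rose by 1.3.

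Growth genes were mostly lower. Of 10 auxin-responsive genes 8 were called lower and 2 higher (median -1.08), with the auxin repressor IAA14 falling by 2.19 and GH3.3, which inactivates auxin by conjugation, rising by 2.39. Of 9 genes of PIF factors and shade response 6 were called lower and 1 higher (median -0.79), among them HFR1 (-1.48) and the wall enzyme XTR7 (-1.97). Of 57 SAUR growth genes 33 were called lower and 11 higher (median -0.70), of which 18 have transcripts under 750 bases, and 27 or, with the length trend removed, 23 were at least 2-fold lower. Among wall-loosening genes 15 of 23 expansins were called lower and 3 higher, or 9 and 4 with HTR5 in place of Col, and 15 of 23 xyloglucan endotransglucosylase genes lower and 7 higher. XTH10, chosen after its value was seen, went against that family with 88.1, 92.5 and 94.6 TPM in sdg2, against 8.62, 8.86 and 9.34 TPM in Col. Of 10 cellulose synthase genes 8 were called lower and 1 higher (median -0.46).

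Smaller hormone and stress lists gave mixed counts. Of 9 abscisic acid genes 6 were called higher and 3 lower (median 0.40), and of 8 cytokinin response regulators 5 higher and 3 lower (median 0.29, or -0.06 under quantile normalization). Of 6 gibberellin oxidase genes 2 were called higher and 4 lower (median -0.53), or 2 and 1 with HTR5 in place of Col (median 0.01). All 4 genes of mitochondrial stress, which include the alternative oxidase, were called higher (median 1.21). Of 7 genes of darkness and sugar starvation 5 were called higher and 2 lower (median 0.80), and the beta-glucosidase DIN2 stood at 108, 96.95 and 103 TPM in sdg2, against 7.28, 5.39 and 7.604 TPM in Col (log2 fold change 3.75 ± 0.102). Of 8 heat shock genes 4 were called higher and 1 lower (median 0.37), the lower one being HSP70, which fell by 0.63 and was 0.37 higher with HTR5 as the control. Of 21 AP2/ERF factors 17 were called higher and 3 lower (median 1.04), and of 9 glutathione transferases of the phi class 7 higher and 2 lower (median 1.34). Calcium-linked families were higher, with 10 of 11 calmodulin-like genes called higher and 0 lower (median 1.28) and 12 of 16 glutamate receptor genes called higher and 1 lower (median 1.17).

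Pigment, iron, nitrogen and transport genes also differed. Of 19 flavonoid and anthocyanin genes 15 were called lower and 1 higher (median -0.68). TT19, which carries anthocyanins to the vacuole, stood at 4.59, 3.81 and 4.03 TPM in sdg2, against 52.7, 48.5 and 55.9 TPM in Col (log2 fold change -3.37 ± 0.0914). LDOX, a late enzyme of the pathway, fell by 2.64, while the regulator MYB90 rose by 1.21. Of 10 iron-deficiency genes 7 were called lower and 1 higher (median -1.27). BHLH038, an activator of iron uptake, stood at 0.137, 0 and 0.276 TPM in sdg2, against 10.2, 9.48 and 12.4 TPM in Col (log2 fold change -3.36 ± 0.156). Its relatives BHLH101 and bHLH100 fell by 2.46 and 2.14, and their partner FIT1 rose by 1.59. Of 4 iron storage genes 3 were called higher, including the ferritin FER3 (1.33). Of 6 nitrogen assimilation genes 4 were called lower and 2 higher, including the nitrite reductase NIR1 (-1.08) and the chloroplast glutamine synthetase GS2 (-1.01).

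Sugar and water transporters were mainly lower where they moved far. Of 15 SWEET sugar transporter genes 12 were called lower and 1 higher (median -0.96). The family members named here were chosen after their values were seen. SWEET12, which exports sucrose, was the exception with 86.8, 77.3 and 82.2 TPM in sdg2, against 18.3, 16.3 and 13.3 TPM in Col (log2 fold change 2.3 ± 0.0952). SWEET13 fell by 2.35. Of 46 aquaporin genes 20 were called lower and 18 higher (median -0.14), 11 of them at least 2-fold lower and 1 at least 2-fold higher. With median-of-ratios scaling 24 were called lower and 8 higher. The water channel gene PIP2A stood at 245, 244 and 234 TPM in sdg2, against 1381, 1446 and 1414 TPM in Col (log2 fold change -2.55 ± 0.0386).

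Genes of cell division and of H3K4 methylation itself lay near the median of all genes. Of 14 mitotic cyclins and kinases 5 were called higher and 2 lower (median 0.19), and of 12 genes of DNA replication and H3.1 5 were called higher and 1 lower (median 0.17), with 0 in either list changed 2-fold. Under quantile normalization the medians turned to -0.14 and -0.18, with 0 called higher in either list and 5 and 6 called lower. Of 9 other H3K4 methyltransferase and COMPASS genes 8 were called higher and 0 lower (median 0.42), and of 6 H3K4 demethylase genes 6 were called higher (median 0.44). With median-of-ratios scaling 3 of the methyltransferase genes and 1 of the demethylase genes were called higher and 0 lower. With the length trend removed the calls were 1 higher and 1 lower among the methyltransferase genes and 0 higher and 2 lower among the demethylase genes. RBL, a COMPASS subunit gene, stood at 38.4, 36.1 and 35.8 TPM in sdg2, against 13.8, 13.8 and 15.3 TPM in Col (log2 fold change 1.3 ± 0.0733), and it alone of the list was at least 2-fold higher. Of 31 cytosolic ribosomal protein genes 10 were called higher and 8 lower (median 0.04, or -0.18 under quantile normalization). Of 234 pentatricopeptide repeat genes, whose products edit and process organelle RNA, 179 were called higher and 6 lower (median 0.60), or 128 and 23 with median-of-ratios scaling and 94 and 38 with the length trend removed.

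Pollen marker genes were present in the seedling libraries of sdg2, with a summed level of 567 to 645 TPM in sdg2 and 384 to 525 TPM in Col, 14.7 to 20.4 TPM in K4A and 295 to 367 TPM in HTR5. Of 11 genes 9 were called higher in sdg2 and 1 lower (median 0.62), or 6 and 1 with median-of-ratios scaling and 5 and 1 with the length trend removed. VGDH1, a pectin methylesterase gene of pollen tubes, stood at 66.8, 66.1 and 73 TPM in sdg2, against 31.7, 30.2 and 28.9 TPM in Col (log2 fold change 1.16 ± 0.0614). AGP23, an arabinogalactan protein gene of pollen with a short transcript, stood at 12.8, 16.8 and 16.2 TPM in sdg2, against 83.8, 63.2 and 62.6 TPM in Col (log2 fold change -2.12 ± 0.117). Floral identity genes were read in both groups too, with 2 of 10 called higher, 5 lower and 0 changed 2-fold (median -0.22). With median-of-ratios scaling 0 were called higher and 5 lower, 2 of them at least 2-fold lower. With HTR5 in place of Col 0 were called higher and 8 lower (median -0.62). How far flower tissue in the seedlings bears on the other values was not tested.

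The effect of sdg2 was set against that of K4A, a change of the methylated residue itself, by testing the difference between sdg2 against Col and K4A against HTR5, which share no library. Of 20881 genes in the fit of all 12 libraries 8499 or 40.7% were called for the difference, or 8960 without HTR5 replicate 2. PR1 averaged 111 TPM in K4A and 41.6 TPM in HTR5, and its change was 4.71 ± 0.179 (SE) larger in sdg2 on the log2 scale, with a limma adjusted p of 8.45e-11. The chitinase gene CHI averaged 1516 TPM in K4A and 28.5 TPM in HTR5, and its change differed by -0.04 ± 0.149 (limma adjusted p = 0.863). For CCA1 the difference was -2.44 ± 0.106 (limma adjusted p = 2.73e-10), with means of 92.2 TPM in K4A and 150 TPM in HTR5. For LHCB2.3 it was -1.02 ± 0.14 (limma adjusted p = 4.26e-05). The medians of some lists were close between sdg2 and K4A and those of others were far apart, each against its own control, and no list's difference was tested as a whole. The median was 2.86 in sdg2 and 2.57 in K4A for salicylic acid synthesis, and -1.63 in sdg2 and -1.54 in K4A for aliphatic glucosinolates. It was -1.86 in sdg2 and -0.39 in K4A for the morning clock, -1.27 in sdg2 and 0.10 in K4A for iron deficiency, 0.37 in sdg2 and 1.87 in K4A for heat shock, and 0.62 in sdg2 and -3.58 in K4A for the pollen markers.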

How the data were processed

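Total RNA of seedlings was sequenced from 3 libraries each of sdg2, Col, K4A and HTR5. Per the submitters' processing notes the tools were fastp 0.20.1, HISAT2 2.1.10 and DESeq2 1.26.0 with the TAIR10 genome. The authors deposited 1 table of TPM per gene and library, per the file headers. The third sdg2 column ends in the word Counts but holds TPM like the others, since its values are not whole and its scale is the same. Taking the annotated span of each gene with introns as its length, 99.98% of 25487 genes gave whole reads within 0.02 reads, so the depths are reads recovered from TPM, and intervals on them would cover counting error only.

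Genes with at least 1 TPM in at least 3 of the 6 libraries were tested with limma 3.58.1 (R 4.3.3, eBayes with trend) after taking log2(TPM + 1), with p-values adjusted by Benjamini-Hochberg over all genes tested. The difference of effects came from 1 fit of all 12 libraries. The fit was tested on simulated data. Named are the 10 largest rises and 10 largest falls among called genes whose groups do not overlap and whose higher group has a mean of at least 5 TPM, SDG2 and the genes starting within 20 kb of it, and members of the gene lists. The members and lists were chosen with earlier results of these data known. The alternatives were other pseudocounts, filters, scalings, thresholds and fits, a replicate block, HTR5 libraries in place of Col, and each library left out. Limma-voom on recovered reads and removal of the trend with spliced length were added after seeing the data. Libraries with the same replicate number did not deviate together. Names, coordinates and promoter sequences came from RefSeq (TAIR10.1), and 222 genes of the table matched no locus tag there. Some promoter sequences are not reported here.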

Additional observations from a re-analysis of the deposited data

Results flagged for a closer look

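The difference between the change in sdg2 against Col and that in K4A against HTR5 was called for 8499 genes (limma adjusted p under 0.05, all 12 libraries), and the genes below stood out by that test. Values are (sdg2 minus Col) minus (K4A minus HTR5) on log2(TPM + 1). The first genes were picked for their large change in sdg2, so a larger change there than in K4A partly follows from that choice. Among the largest rises the change in sdg2 exceeded that in K4A by 2.61 for DLO1, 2.65 for FMO1, 1.59 for AT5G23240, 4.71 for PR1, 1.64 for FKF1, 1.75 for PRR5, 1.74 for WAK3, 1.9 for CRK7 and 2.31 for CRK37, while it was -0.04 and not called for CHI. Among the largest falls it was -6.9 for AT4G15750, -5.6 for AT5G47350, -4.65 for AT1G13609, -2.58 for MRU1, -1.13 for AT5G48490, -1.62 for AT1G13650, -3.36 for DELTA-VPE, -1.58 for AT5G35480 and -1.84 for AT4G13575, while it was -0.06 and not called for AT2G01021. AT4G15750 and AT5G47350 averaged 0.142 and 0.414 TPM in HTR5, where K4A could show no fall, and HTR5 minus Col was -6.87 and -5.68 on the log2 scale, so their values restate the high level in Col alone. DELTA-VPE and AT1G13609 were also lower in HTR5 than in Col (-2.91 and -1.38), which enters their values. With HTR5 as the control their changes in sdg2 were -1.96 and -4.03, beside -1.5 and -0.77 in K4A. Other listed genes that were lower in sdg2 differed as well, at -3.09 for the sugar transporter SAG29, -2.2 for the chaperone HSP70 and -2.53 for the iron regulator bHLH100.

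Of the 11 pollen genes 10 were called lower in K4A than in HTR5 and 1, AGP23, lower in sdg2 than in Col, and the difference was 5.3 for the polygalacturonase PGA4, 5.18 and 4.73 for the pectin methylesterases VGD1 and VGDH1, 4.26 and 4.08 for the arabinogalactan proteins AGP6 and AGP11, 4.57 for BCP1, 3.91 for PPME1 and 2.76 for the receptor kinase ANX2. The summed pollen list was 567 to 645 TPM in sdg2, 384 to 525 TPM in Col, 14.7 to 20.4 TPM in K4A and 295 to 367 TPM in HTR5. The share of flower tissue in each library was not measured, and its part in these values was not tested.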

How the results depend on the processing

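Across the alternatives the number of called genes stayed within 1.5 times of 15717, and leaving out each library in turn gave 14809 to 15443 called genes, 4420 to 4590 called and changed at least 2-fold, and 7066 to 9306 called for the difference of effects. The share of called genes that were higher in sdg2 was 71.6% as deposited, 50.4% with median-of-ratios scaling, 49.4% with quantile normalization, 49.9% with limma-voom on recovered reads and 52.1% with the length trend removed. For the difference of effects that share was 65.4% as deposited, 44.8% with median-of-ratios scaling, 52.0% with quantile normalization, 44.9% with limma-voom and 47.9% with the length trend removed. Of 3041 genes at least 2-fold higher 99.7% and all of the 1417 at least 2-fold lower stayed called in the same direction with median-of-ratios scaling, and 99.0% and 90.3% did with HTR5 in place of Col. The direction turned with HTR5 in place of Col for PDF1.2 (1.38), PDF1.2C (1.77), SAG29 (1.06) and HSP70 (0.37), and with quantile normalization for LHCB4.1 (0.81), PSBO1 (0.46) and PPME1 (-0.02), and the cause was not tested. LHCB1.3 and RBCS1A differed by 0.00 under quantile normalization, which gives genes of the same rank the same value, so that is no change of direction. EPS1 was called lower with median-of-ratios scaling, quantile normalization, limma-voom and the length trend removed. Of 80 lists and families 54 kept their count of called genes within 1.5 times under every alternative run.

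The replicate numbers did not pair the libraries, with correlations of deviations of 0.019, -0.032 and -0.054 between same-numbered sdg2 and Col libraries. With the replicate block 15551 genes were called, 4458 changed at least 2-fold, and 7986 were called for the difference of effects.

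With 3 libraries in each group and 1 control line per mutant, genes with few reads rest on counts as low as 0 to 4, and depth, chloroplast share and length trend follow the same split as the genotypes.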
